A study of Homo sapiens with 8 samples.

Results

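The response of HepG2 cells to quercetin at 24 h was described from 1 quercetin array and 1 control array, which are 2 of the 8 arrays in the series. HepG2 is a human line grown from a hepatocellular carcinoma, and quercetin is a flavonol found in many food plants. The quercetin array came from cells kept for 24 h in serum-free medium with 3 µM quercetin. The control array came from cells kept for 24 h in the same medium without it, and both followed a period of serum starvation. The other arrays hold the same pair of treatments at 2, 4 and 12 h. Their differences serve below as a yardstick of spread. With 1 array a side, no difference at 24 h has a replicate check, so sizes are given without a p-value.

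Each gene was read from the brightest of its probe sets that name only that gene, and the 13298 of 19775 genes whose mean over the 8 arrays exceeded 7.43, the midpoint of all probe sets by level, entered the counts. Levels are log2 values, and a difference is the quercetin array minus the control array at the same time. A difference of 1 corresponds to a 2-fold ratio. A difference counted as large if it was at least 1 in size. The level of a probe set is not comparable with the level of another, so levels are compared only between arrays.

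Quercetin is known in cells for chemical reactivity towards oxidants and metals and for ligand activity at the aryl hydrocarbon receptor, AhR, which drives CYP1A1. Oxidised flavonols can release the transcription factor NRF2, which drives antioxidant and detoxifying genes. Serum-free culture is itself a strain: it can engage FOXO factors, p53 and ATF4, the factor of the amino acid and integrated stress responses. ATF4 raises genes for amino acid synthesis and uptake and is followed by ATF3, DDIT3 and TRIB3. In hepatocytes these programmes sit beside a very high output of plasma proteins.

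At 24 h the quercetin array differed from the control array by small amounts for most genes. The ATF4 list and the immediate early list stood lower in the quercetin array in 17 of 20 and 15 of 16 members, with medians of -0.26 and -0.22. Over all genes used 66.2% were lower, with a median of -0.10. Other lists leaned as far: p53 targets were lower in 16 of 17 genes, autophagy genes in 15 of 16 and FOXO-linked genes in 12 of 13. After quantile normalization 50.9% of all genes were lower. The counts were then 17 of 20 for ATF4, 14 of 16 for immediate early and 12 of 17 for p53. In the deposited values NRF2 targets were higher in 12 of 23 genes and lower in 11, against 33.8% of all genes higher. On both sides the large differences lay mostly in dim transcripts. On the lower side the 3 largest, in H3-3A, RPL27A and RPLP2, had run the opposite way at 2 h, as the 18S rRNA signal had.

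Of the 13298 genes, 31 were at least 1 higher in the quercetin array at 24 h, which is 0.233%, and 20 were at least 1 lower, which is 0.15%. Together these 51 genes are 0.384% of those used. The split between the sides depended on the choices made: 42 were higher and 15 lower after cyclic loess, and 10 were higher and 14 lower when the probe sets of a gene were averaged. The count of genes at least 1 in size was 63 genes at 2 h (0.474%), 9 genes at 4 h (0.0677%) and 46 genes at 12 h (0.346%). The 24 h pair thus lay within the range of the other pairs in the number of large differences. The SD of the difference over all genes was 0.29 at 24 h, between 0.22 at 4 h and 0.34 at 2 h. From the 5th to the 95th percentile, the 24 h differences ran from -0.51 to 0.42.

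**Figure D1:**
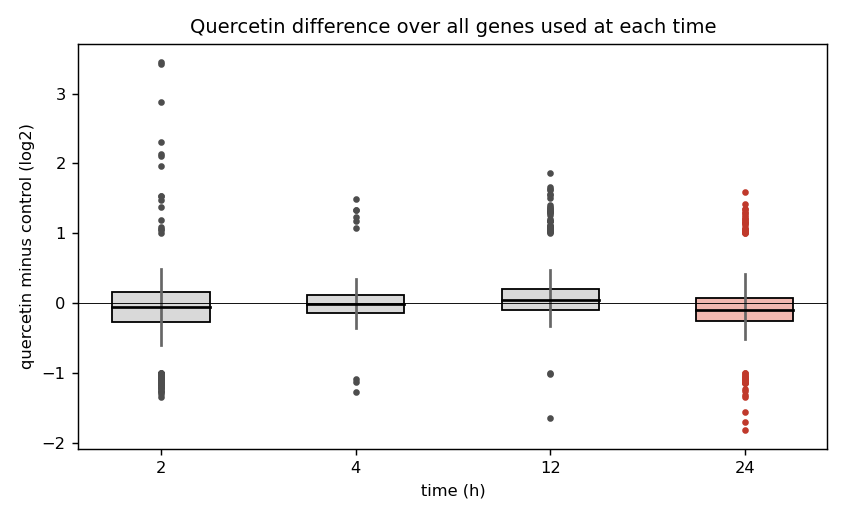
Quercetin minus control (log2) over the 13298 genes used, by time (h). Boxes span the quartiles with the median as a line, whiskers run from the 5th to the 95th percentile, and points are the genes at least 1 in size. The 24 h box has its median at -0.10, and its 51 points extend to 1.60 above and to -1.82 below.

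The difference was below 0 for 66.2% of genes at 24 h, and its median was -0.10. That shift depended on the scaling. After quantile normalization 50.9% of genes were lower in the quercetin array, and after cyclic loess 50.2% were, with medians within 0.01 of 0. The shares on the higher side were 33.8% in the deposited values, 49.1% after quantile normalization and 49.8% after cyclic loess. Both methods draw the distributions of the arrays together and so bring the median towards 0 by construction. After each array was centred on its own median, 68.4% of genes were lower and 31.6% higher, with a median of -0.12. The list counts and medians below are to be read against these all-gene values under the same scaling. The shift was not common to all genes. With genes ranked by level into 5 bins, the median difference was 0.01 in the dimmest bin and -0.16 in the next to brightest. Array medians were 7.38 in the quercetin array and 7.36 in the control array, and the SD of values within the array was 1.90 in the quercetin array and 1.95 in the control array. The mean level of 3 probe sets for 18S rRNA was 9.16 in the quercetin array and 9.82 in the control array, and that of 18 hybridisation spike-in probe sets was 11.83 in the quercetin array and 12.01 in the control array. The 3' minus 5' difference of ACTB, a sign of RNA integrity, was 1.39 in the quercetin array and 1.36 in the control array.

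For each large difference, both arrays at 24 h were set beside the 6 arrays of the other times. Genes chosen for a wide gap at 24 h tend by that choice to have an outlying array. The 6 arrays also differ from them in time. In 26 of the 31 genes that were at least 1 higher, the control array at 24 h lay below all 6. Over all genes used that held in 2289 of 13298. The quercetin array lay above all 6 in 16 of the 31, against 34.4% of all genes. In 14 of the 20 lower genes the control array lay above all 6, against 44.8% of all genes. The quercetin array lay below all 6 in 7 of the 20, against 2289 of all 13298. The control array was the farther of the 2 from the median of the other 6 in 67.7% of the higher genes and 65.0% of the lower genes. Over all genes used that share was 65.4%, so the genes with large differences did not stand apart in it.

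TEX48, a testis-expressed gene on chromosome 9, had a control array that lay apart from the other times. It read 9.43 in the quercetin array and 8.01 in the control array at 24 h, a difference of 1.42. In the other 6 arrays it lay between 9.33 and 10.65. The quercetin value was thus inside that range, near its lower end, and the control value was below it. SAMD15 on chromosome 14 had the same shape, with 8.79 in the quercetin array, 7.45 in the control array and 8.59 to 9.54 in the other 6. LINC00520, a long non-coding RNA on chromosome 14, was the brightest of the 31 and read 11.18 in the quercetin array and 10.14 in the control array. Both values lay below the 11.21 to 12.62 of the other 6 arrays.

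In other genes on the higher side the quercetin array, or both arrays, lay outside the other 6. NFIA-AS2, a non-coding RNA antisense to the developmental factor NFIA, had the largest positive difference, 1.60, with 8.82 in the quercetin array and 7.22 in the control array. Its other 6 arrays lay between 7.64 and 8.12, so the quercetin array was above them and the control array below. GARIN4, a Golgi-associated factor on chromosome 1, read 10.87 in the quercetin array and 9.71 in the control array, with 9.47 to 10.06 elsewhere. Only its quercetin array lay outside that range. Its 2 other bright probe sets differed by -0.04 and -0.23, against 1.17 in the brightest. CTSLP8, a cathepsin L pseudogene, read 8.86 in the quercetin array, 7.57 in the control array and 7.75 to 8.03 elsewhere. CROCC, which encodes the ciliary rootlet protein, read 10.09 in the quercetin array and 9.07 in the control array, a difference of 1.02, and its other bright probe set differed by 0.44.

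The 10 largest positive differences were completed by LOC101927513 (1.35), ADRA1D (1.31), ANXA2P1 (1.26), PWRN2 (1.24), CNBD2 (1.21) and LINC01732 (1.20). ADRA1D, the alpha-1D adrenergic receptor, read 8.23 in the quercetin array and 6.92 in the control array. Among genes above the 75th percentile of brightness (8.76), ASB12 differed by 1.15, PRDM2 by 0.99, the pseudogene RBMY3AP by 0.98 and ARHGEF1 by 0.97. ARHGEF1 differed by at most 0.01 in size at each of 2, 4 and 12 h. Its value of 9.28 in the control array at 24 h was its lowest of 8.

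Most of the higher genes were dim, and so were most of the lower genes. Their median levels were 8.06 and 8.40, against 9.16 over all genes used. Above the 75th percentile lay 7 of the 31 higher genes (22.6%) and 5 of the 20 lower genes (25%), against 60.9% of all genes used. In 18 of the 31, the control array at 24 h was below the brightness cutoff. The quercetin array was below it in 4 of the 20. Of the 31, 9 were not protein coding (29%), against 8.2% of all genes used. Of the 31, 18 came from the dimmest of those 5 bins, as the plot of the difference by level shows.

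**Figure D2:**
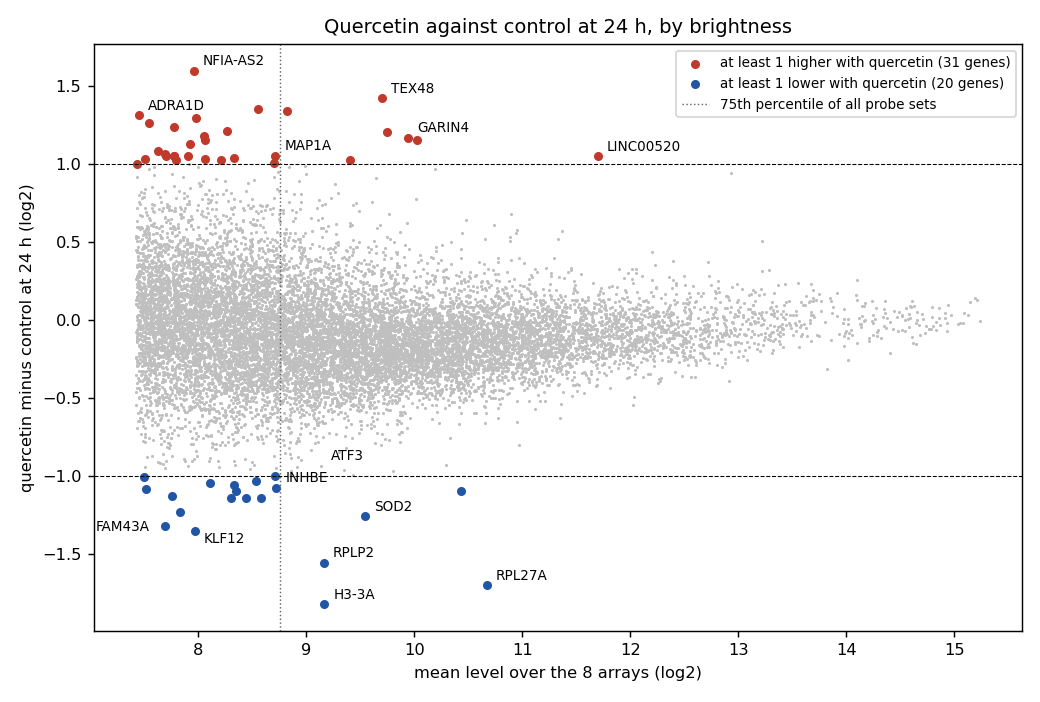
Quercetin minus control at 24 h (log2, y axis) against the mean level over the 8 arrays (log2, x axis) for 13298 genes, with the 31 genes at least 1 higher and the 20 at least 1 lower coloured. The spread narrows as the level rises, and 12 of the 51 coloured points lie to the right of the 75th percentile, 8.76.

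Few large differences could be read in a second probe set. Of the 51 genes, 11 had another probe set above the brightness cutoff, and in 5 of these all such probe sets shared the sign. Over all genes used, the sign was shared in 47.9% of the 5583 genes that could be looked at. In 4 genes another such probe set was at least 0.5 in size, with the same sign in 2 and the opposite sign in 2. MAP1A, a microtubule-associated protein of neurons, read 8.93 in the quercetin array and 7.87 in the control array, and its second probe set gave 7.88 in the quercetin array and 7.07 in the control array. In both probe sets the quercetin array was higher, by 1.05 and 0.81. CD79B, a signalling chain of the B-cell receptor, read 8.28 in the quercetin array and 7.24 in the control array, and differed by 0.64 in its second probe set. The 2 with opposite signs were chosen after their values were seen. SIM2 differed by 1.05 in 1 probe set and by -0.68 in another, and PHKG1 by 1.03 and by -0.55.

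On the lower side, the leading genes were H3-3A, which encodes the replication-independent histone H3.3, RPL27A and RPLP2, which encode ribosomal proteins, and SOD2, the manganese superoxide dismutase of mitochondria. H3-3A read 8.58 in the quercetin array and 10.41 in the control array at 24 h, a difference of -1.82. RPL27A read 9.89 in the quercetin array and 11.59 in the control array, a difference of -1.70. RPLP2 read 8.19 in the quercetin array and 9.75 in the control array, a difference of -1.56. All 3 had the opposite order at 2 h, when the quercetin array was higher by 2.11, 3.45 and 3.42. SOD2 differed by -1.26 at 24 h and by 1.53 at 2 h.

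The 18S rRNA signal also had opposite orders at 2 and 24 h. The 18S mean was higher in the quercetin array by 3.44 at 2 h and by 0.10 at 4 h, and differed by -0.06 at 12 h and by -0.66 at 24 h. Of the 20 genes at least 1 lower at 24 h, 6 were at least 1 higher at 2 h, out of 16 such genes at 2 h in all (0.12%). Besides the 4 above they were PEG3-AS1 and ND6, a mitochondrially encoded complex I subunit. PEG3-AS1 read 10.06 in the quercetin array and 11.16 in the control array at 24 h. ND6 read 8.47 in the quercetin array and 9.47 in the control array. The rRNA precursor gene RNA45SN5, named after its values were seen, differed by 1.54 at 2 h and by -0.86 at 24 h. Whether the 18S signal had a part in these differences was not tested.

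**Figure D3:**
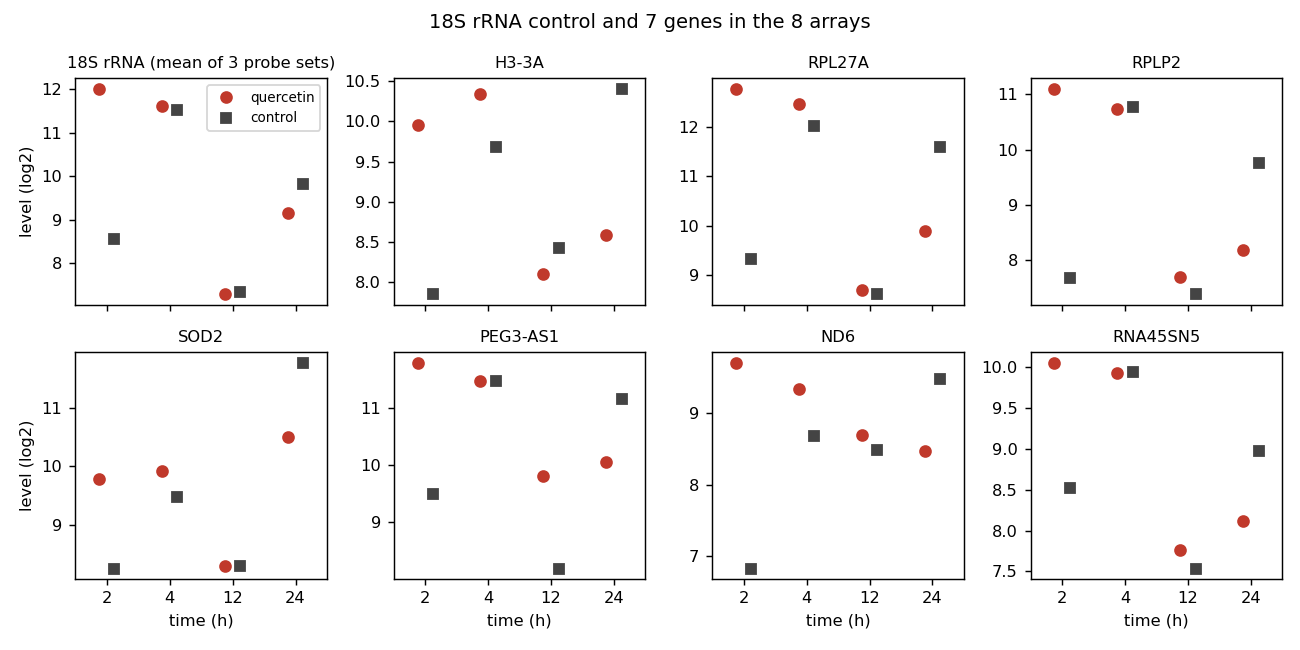
Levels (log2, y axis) of 18S rRNA, as the mean of 3 control probe sets, and of 7 genes in the 8 arrays by time (h), quercetin as circles and control as squares. In all 8 panels the quercetin point lies above the control point at 2 h and below it at 24 h.

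Probe sets of the same gene could differ in this respect. ALB, which encodes albumin, read 15.10 in the quercetin array and 15.12 in the control array at 24 h in its brightest probe set. Another ALB probe set read 10.24 in the quercetin array and 11.23 in the control array, a difference of -0.99, and had differed by 2.03 at 2 h. APOA1, the main protein of high-density lipoprotein, was alike, with -0.04 in the brightest probe set and -1.20 in a dimmer one that had differed by 2.30 at 2 h. PSMB4, a proteasome subunit, differed by -0.23 in its brightest probe set and by -0.78 in its dimmest, against 0.36 and 1.87 at 2 h. These 3 genes were chosen after their values were seen.

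The other 14 lower genes had no such excess at 2 h. KLF12, a repressor of the Krüppel-like family on chromosome 13, read 7.92 in the quercetin array and 9.27 in the control array, with 7.56 to 8.10 in the other 6. The control array alone stood outside. Its other probe set above the cutoff differed by 0.36, so the 2 probe sets had opposite signs. FAM43A on chromosome 3 read 6.93 in the quercetin array and 8.25 in the control array, and neither value lay within the 7.28 to 8.08 of the other times. SLC31A2, a copper transporter, read 8.31 in the quercetin array and 9.45 in the control array, and only the control array lay above the others. CYLD, a deubiquitinase that restrains NF-kB, differed by -1.06, and its 6 other probe sets, of which 1 was above the cutoff, differed by -0.41 to -0.04. INHBE, a liver-secreted activin subunit named after its values were seen, read 7.77 in the quercetin array and 8.85 in the control array, against 8.23 to 9.18 elsewhere. Here the quercetin array alone was low.

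The rest of the 10 largest negative differences were TUBBP5 (-1.24), VSTM2B-DT (-1.15) and MAGEE1 (-1.14). Among bright genes, EPC2 differed by -0.996, KNG1 by -0.97, B4GALT1 by -0.97, ZFX by -0.96 and IQGAP3 by -0.94. KNG1 encodes kininogen, a plasma protein of the contact system. It read 9.03 in the quercetin array and 9.997 in the control array, and its second probe set differed by -0.38. B4GALT1, a galactosyltransferase, had another probe set that differed by 0.86, so its sign was not shared. ZFX, a zinc-finger factor on chromosome X, was lower in all 3 of its bright probe sets.

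The ATF4 and amino acid response list was lower in the quercetin array in 17 of its 20 genes, with a median of -0.26. Over all genes used the share was 66.2% and the median -0.10. After quantile normalization and after cyclic loess 17 of 20 were still lower, with medians of -0.13 and -0.14. The median had been -0.16 at 2 h, 0.09 at 4 h and 0.06 at 12 h. In 13 of the 20 genes (65.0%) the 24 h difference was the lowest of the 4 times, against 33.2% of all genes used. None of the 20 differed by 1 or more, and 3 were at least 0.5 lower, against 5.46% of all genes used. After quantile normalization 1 of the 20 was, against 2.32% of all genes. Of the 7 lower members with another probe set above the cutoff, 5 shared the sign in all of them.

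ATF3, a stress-induced repressor that follows ATF4, was the member with the largest difference. It read 9.32 in the quercetin array and 10.25 in the control array at 24 h, a difference of -0.94. In the other 6 arrays it lay between 8.54 and 9.38, so the control array stood above them and the quercetin array was inside. Its other bright probe set differed by 0.05. SLC7A11, the cystine importer, read 8.89 in the quercetin array and 9.54 in the control array. Its second probe set differed by 0.09 at 24 h, while both were higher in the quercetin array at 4 h, by 0.99 and 1.11. DDIT3, the pro-apoptotic factor CHOP, read 9.503 in the quercetin array and 10.10 in the control array, a difference of -0.59, and differed by at most 0.16 in size at the other times.

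TRIB3, a pseudokinase that feeds back on ATF4, read 11.58 in the quercetin array and 12.07 in the control array, a difference of -0.49. Its differences at the earlier times ran from -0.22 to 0.44. ASNS, asparagine synthetase, read 10.32 in the quercetin array and 10.67 in the control array, and ATF4 itself read 12.88 in the quercetin array and 13.18 in the control array. Both genes were at their highest in the control array at 24 h and second highest in the quercetin array. The serine synthesis enzyme PHGDH differed by -0.39, and the transporter chain SLC3A2 by -0.28. The 3 members on the higher side were FGF21, a fasting hormone of the liver (0.26), VLDLR (0.25) and CHAC1, a glutathione-degrading enzyme (0.04).

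Of the 20 genes, 18 had a promoter window in the RefSeq table used here (GRCh38.p14). The 250 bases before the start were searched on both strands for TGATGNAA, the core of the element through which ATF4 and its CEBP partners bind amino acid response genes, with TTNCATCA as its other strand. It was found in 4 of the 18 genes, against 3.89% of the 27305 genes in the table. The matching window of each of these 4 genes is printed, ATF3 and ASNS lower, CHAC1 and FGF21 higher. Each is written 5′ to 3′ on the gene's own strand, in lower case with the match in capitals. The windows are chr1:212565157-212565406 on the plus strand for ATF3 and chr7:97872409-97872658 on the minus strand for ASNS. Those of CHAC1 and FGF21 are chr15:40953221-40953470 and chr19:48755274-48755523, both on the plus strand. A match is a description of these letters, and no match says only that they are not in this window.
ATF3: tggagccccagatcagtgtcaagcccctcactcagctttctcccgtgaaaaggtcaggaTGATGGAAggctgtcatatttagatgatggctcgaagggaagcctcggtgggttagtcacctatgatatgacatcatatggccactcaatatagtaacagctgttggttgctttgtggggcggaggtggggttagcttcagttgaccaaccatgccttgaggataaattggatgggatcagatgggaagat
ASNS: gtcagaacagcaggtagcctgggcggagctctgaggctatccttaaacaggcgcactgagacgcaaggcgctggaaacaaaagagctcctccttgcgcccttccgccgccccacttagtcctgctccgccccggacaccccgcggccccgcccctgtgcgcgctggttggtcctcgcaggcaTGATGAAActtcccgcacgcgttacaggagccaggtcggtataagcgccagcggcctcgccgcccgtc
CHAC1: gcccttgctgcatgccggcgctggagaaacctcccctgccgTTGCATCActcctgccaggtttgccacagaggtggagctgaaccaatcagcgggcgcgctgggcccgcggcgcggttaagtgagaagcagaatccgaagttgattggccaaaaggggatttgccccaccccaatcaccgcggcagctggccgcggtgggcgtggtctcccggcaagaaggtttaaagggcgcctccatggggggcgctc
FGF21: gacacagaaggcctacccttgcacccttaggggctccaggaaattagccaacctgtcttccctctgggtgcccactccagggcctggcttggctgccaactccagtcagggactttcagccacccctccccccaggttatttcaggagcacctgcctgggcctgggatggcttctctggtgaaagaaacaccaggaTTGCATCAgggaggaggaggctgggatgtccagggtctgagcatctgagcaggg

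The first capital letter lies 191 bases before the start in ATF3, 68 in ASNS, 209 in CHAC1 and 54 in FGF21. ATF3 and ASNS carry the element on the gene's strand and CHAC1 and FGF21 on the opposite strand. The genes that carry it did not share a sign at 24 h: ATF3 and ASNS differed by -0.94 and -0.36, CHAC1 and FGF21 by 0.04 and 0.26.

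Immediate early transcription factors, which respond to stress and growth signals within minutes, were lower in 15 of 16 genes with a median of -0.22. Over all genes used 66.2% were lower, with a median of -0.10. After quantile normalization and after cyclic loess 14 of 16 were lower, against 50.9% and 50.2% of all genes. At 2 h 12 of the 16 had been lower, with a median of -0.24. Of the 6 lower members with another probe set above the cutoff, 2 shared the sign in all of them. ATF3 belongs to this list as well. FOS read 7.91 in the quercetin array and 8.61 in the control array, a difference of -0.71. In the other 6 arrays it lay between 7.29 and 7.57, so both arrays at 24 h were above them. JUN read 10.24 in the quercetin array and 10.76 in the control array, a difference of -0.52. EGR1 (-0.15), MYC (-0.15) and JUNB (-0.31) were also lower, and KLF10 was the single member on the higher side, by 0.07. For the list as a whole, the median distance from the other 6 arrays was 0.41 in the quercetin array and 0.77 in the control array. For the ATF4 list the distance was 0.13 in the quercetin array and 0.43 in the control array, and for all genes used 0.10 in the quercetin array and 0.20 in the control array.

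**Figure D4:**
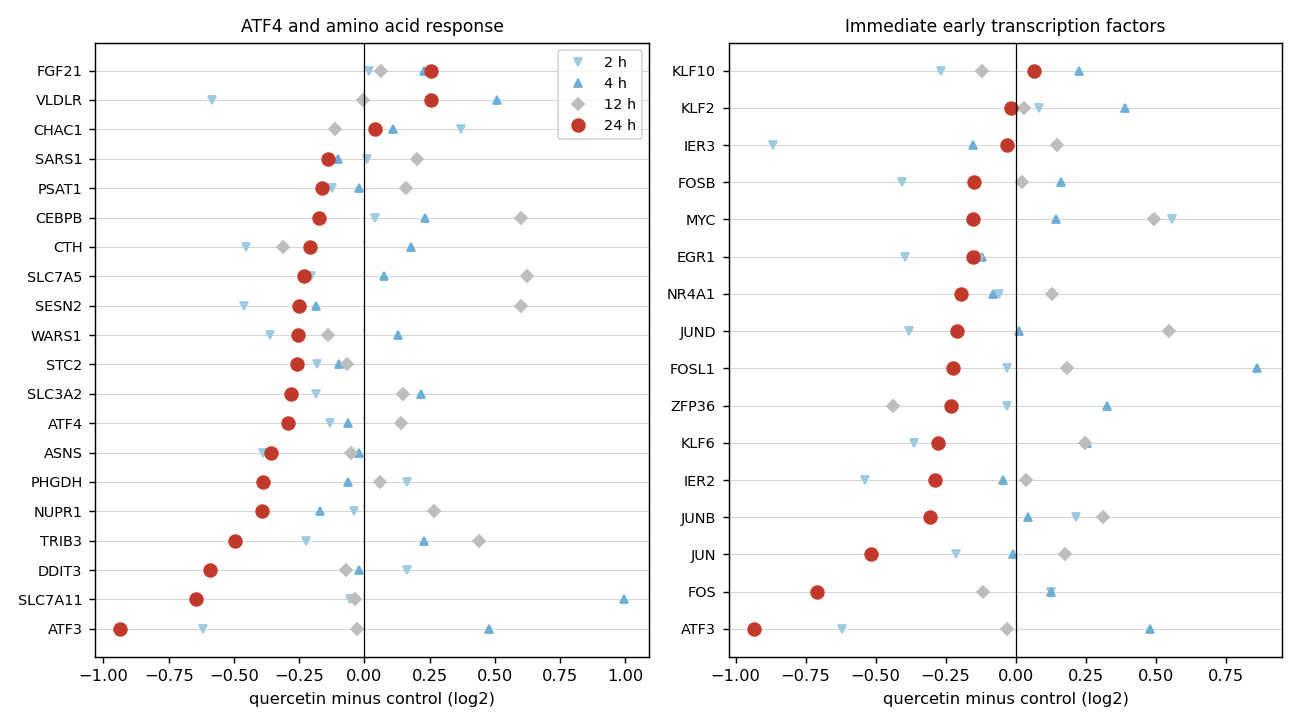
Quercetin minus control (log2, x axis) of the members of the ATF4 list (left) and the immediate early list (right), ordered by the 24 h difference, with 1 marker for each time. At 24 h 17 of 20 and 15 of 16 genes lie left of 0, with ATF3 at -0.94 in both.

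The stress and growth-arrest lists beside ATF4 leaned the same way, and less so after rescaling. Over all genes used 66.2% were lower, with a median of -0.10. After quantile normalization 50.9% were, and after cyclic loess 50.2%. Targets of p53, the damage-responsive tumour suppressor, were lower in 16 of 17 genes with a median of -0.25, and 12 of 17 were lower after either rescaling. GDF15, a secreted stress cytokine, read 11.36 in the quercetin array and 11.75 in the control array, and a second probe set differed by -0.60. PPM1D (-0.50), RRM2B (-0.48) and DDB2 (-0.44) had the largest differences among p53 targets, CDKN1A differed by -0.22 and MDM2 by 0.05. For 8 of the 9 lower members with another bright probe set, the sign was shared. At 2 h the p53 median had been -0.32, lower than at 24 h.

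Apoptosis regulators were lower in 14 of 16 genes with a median of -0.19, and in 11 of 16 after either rescaling. PMAIP1, the BH3-only protein NOXA, read 7.25 in the quercetin array and 7.98 in the control array. BIK, another BH3-only protein, read 7.96 in the quercetin array and 8.67 in the control array. BCL2L11, which encodes BIM, went the other way with 10.94 in the quercetin array and 10.38 in the control array, a difference of 0.56. The mean of its probe sets differed by 0.11, and its brightest gene-specific probe set by -0.18.

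Autophagy and lysosome genes were lower in 15 of 16 with a median of -0.19, and in 12 of 16 after either rescaling. GABARAPL1 (-0.49) and MAP1LC3B (-0.42), the ubiquitin-like proteins of autophagosomes, and WIPI1 (-0.40) had the largest differences. SQSTM1, the receptor p62, differed by -0.04. The lowest difference of the 4 times came at 24 h in 10 of the 16 genes, or 62.5%, against 33.2% over all genes used. The FOXO-linked list was lower in 12 of 13 genes with a median of -0.20, which was -0.07 after quantile normalization and -0.05 after cyclic loess. INSR, the insulin receptor, read 10.11 in the quercetin array and 11.04 in the control array. Its other 3 bright probe sets differed by -0.43, -0.35 and -0.00.

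In the deposited values NRF2 targets, which quercetin is known to engage, had a lower median at 24 h than at 12 h. NRF2 targets were higher in 12 of 23 genes and lower in 11, with a median of 0.02. Over all genes used 33.8% were higher, with a median of -0.10. After quantile normalization and after cyclic loess 15 of 23 were higher, against 49.1% and 49.8% of all genes. The NRF2 medians had been 0.31 at 4 h and 0.38 at 12 h. In 16 of the 23 genes (69.6%) the 24 h difference was the lowest of the 4 times, against 33.2% of all genes used. AKR1B10, an aldo-keto reductase, had the largest difference of the list, with 11.17 in the quercetin array and 10.56 in the control array. That difference of 0.60 compares with 1.34 at 4 h and 1.63 at 12 h. NQO1, the quinone reductase, read 13.67 in the quercetin array and 13.45 in the control array, and its 2 other bright probe sets differed by 0.17 and 0.36. SRXN1 differed by 0.20, GCLM by 0.08, HMOX1 by -0.21 and SLC7A11, which is also an ATF4 target, by -0.65.

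AhR targets were higher in 4 of 6 genes with a median of 0.14, and 4 of 6 were higher under each rescaling. Their medians had been 0.28 at 2 h, -0.16 at 4 h and 0.18 at 12 h. In 1 of the 6 genes (16.7%) the 24 h difference was the lowest of the 4 times, against 33.2% of all genes used. Over all genes used 33.8% were higher in the deposited values, with a median of -0.10. CYP1A1, the AhR-induced monooxygenase, read 8.80 in the quercetin array and 8.51 in the control array at 24 h. At 12 h it had read 10.44 in the quercetin array and 8.58 in the control array. The quercetin array at 24 h was thus below the quercetin arrays of all earlier times, and the difference of 0.29 compares with 1.86 at 12 h. CYP1A2 differed by 0.06, TIPARP, a feedback repressor of AhR, by -0.27 and ALDH3A1 by -0.22.

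Enzymes and pumps that conjugate and export flavonoids were lower in 7 of 11 genes with a median of -0.08, which was 0.03 after either rescaling. GSTP1, a glutathione transferase that is low in hepatocytes, read 8.15 in the quercetin array and 7.63 in the control array. GSTA1, another glutathione transferase, differed by 0.37, SULT2A1 by -0.28 and the export pump ABCG2 by -0.26. Among 8 drug-metabolising CYP genes, CYP3A5 differed by 0.51, CYP2J2 by 0.31 and CYP4F3 by -0.44, with a median of -0.05. Metallothioneins and zinc transporters were lower in 9 of 10 genes with a median of -0.26, and 8 of 10 were lower after either rescaling. Over all genes used 66.2% were lower in the deposited values, with a median of -0.10. SLC30A1, the zinc exporter, differed by -0.38 and MT1H by -0.33, while their regulator MTF1 was higher, by 0.43. The other bright probe set had the opposite sign in SLC30A1 (0.48) and in MTF1 (-0.13). These metal-binding genes had been lower at 2 and 4 h too, with medians of -0.23 and -0.20.

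Lists of energy metabolism did not share a direction. Gluconeogenesis and fasting genes were lower in 8 of 9, with a median of -0.22, against 66.2% and -0.10 over all genes used. G6PC1, the last enzyme of glucose release, read 11.16 in the quercetin array and 11.52 in the control array. PCK1, the first committed enzyme, read 10.21 in the quercetin array and 10.52 in the control array, and FOXO1, the insulin-restrained factor that drives both, read 9.25 in the quercetin array and 9.76 in the control array. The other bright probe set was on the higher side in G6PC1 (0.12) and in FOXO1 (0.07). After rescaling 7 of the 9 were lower, with medians of -0.11 and -0.10. Glycolysis and hypoxia targets were higher in 18 of 27 genes with a median of 0.02, against -0.10 for all genes, and 2 of 27 were lower after quantile normalization and 3 of 27 after cyclic loess. The median after quantile normalization was 0.12, against -0.13 for the ATF4 list. PDK1 (0.19), TPI1 (0.17) and HK2 (0.16) led that side. DDIT4, an mTORC1 inhibitor that hypoxia and ATF4 both raise, read 11.62 in the quercetin array and 12.25 in the control array.

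Lipid genes gave a mixed picture. Cholesterol synthesis genes were lower in 8 of 12 with a median of -0.06, against 66.2% and -0.10 over all genes used. The sign of the list median turned after either rescaling. At 2 and 4 h their medians had been -0.49 and -0.39. MVD differed by -0.31, HMGCS1 by -0.21 and MVK by 0.10. Among fatty acid synthesis genes, GPAM, the first acyltransferase of triglyceride synthesis, differed by -0.52 and ELOVL6 by -0.49. The other bright probe set of GPAM differed by 0.15. ACLY, the source of cytosolic acetyl-CoA, differed by 0.22 and THRSP by 0.43. ANGPTL4, a fasting-induced inhibitor of lipoprotein lipase, read 8.58 in the quercetin array and 9.38 in the control array, while CPT1A, the gate to mitochondrial oxidation, differed by -0.09.

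Cell-cycle genes showed no common direction. Mitotic genes were lower in 20 of 30 with a median of -0.10, equal to that of all genes, and replication genes in 16 of 26 with a median of -0.07. The share lower over all genes used was 66.2%. NUF2 (-0.53), CDCA8 (-0.45) and MKI67 (0.36) marked the ends of the mitotic list. PCNA, the sliding clamp of DNA polymerase, read 13.20 in the quercetin array and 12.69 in the control array, with 13.17 to 13.42 in the other 6. The control array alone was low. Replication-dependent histones were lower in 5 of the 6 genes used, with a median of -0.36, and 9 of the 15 listed were too dim or had no probe set. H1-2 read 9.09 in the quercetin array and 9.67 in the control array, and H2AC6 read 9.44 in the quercetin array and 10.01 in the control array. Among histone variants other than H3-3A, the differences ran from -0.18 in H2AZ2 to 0.07 in MACROH2A1.

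Genes of the translation machinery were nearly level. Of 42 ribosomal protein genes, 40 differed by -0.22 to 0.12, and the other 2 were RPL27A and RPLP2. POLR1B, a subunit of RNA polymerase I, read 9.94 in the quercetin array and 9.30 in the control array, the largest difference among ribosome biogenesis genes. Its 3 other bright probe sets had the opposite sign, from -0.35 to -0.15. Mitochondrially encoded transcripts other than ND6 ran from -0.01 in ND4 to 0.23 in COX3. MALAT1, an abundant nuclear non-coding RNA, read 12.12 in the quercetin array and 11.18 in the control array in its brightest probe set. Of its 10 probe sets above the cutoff, 8 were higher in the quercetin array and 2 were lower, and their differences ran from -0.32 to 1.496. In the brightest, both arrays at 24 h lay below all 6 others, which ran from 12.79 to 13.94.

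Both arrays carried the hepatocyte programme. All 10 hepatocyte markers were above the cutoff, with differences from -0.39 in TTR to 0.12 in APOB and a summed linear signal of 266170 in the quercetin array and 269788 in the control array. Secreted plasma proteins were lower in 22 of 28 genes with a median of -0.07, against 66.2% and -0.10 over all genes used. RBP4, the retinol carrier, differed by 0.19 and SERPINA1 by 0.04. Among liver transcription factors FOXA3 read 9.85 in the quercetin array and 10.59 in the control array, FOXA2 differed by -0.29 and CEBPA by 0.10. Of 10 leukocyte markers 6 were above the cutoff, with a summed linear signal of 18851 in the quercetin array and 19971 in the control array, nearly all of it from LYZ. Of 9 fibroblast markers 6 were above it, with sums of 2019 in the quercetin array and 2275 in the control array. Of 7 endothelial markers 2 were, with sums of 987 in the quercetin array and 854 in the control array, and of 10 markers of other epithelia 4 were, with sums of 1951 in the quercetin array and 1662 in the control array. Bulk arrays cannot tell fewer cells of a type from less RNA per cell.

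**Figure D5:**
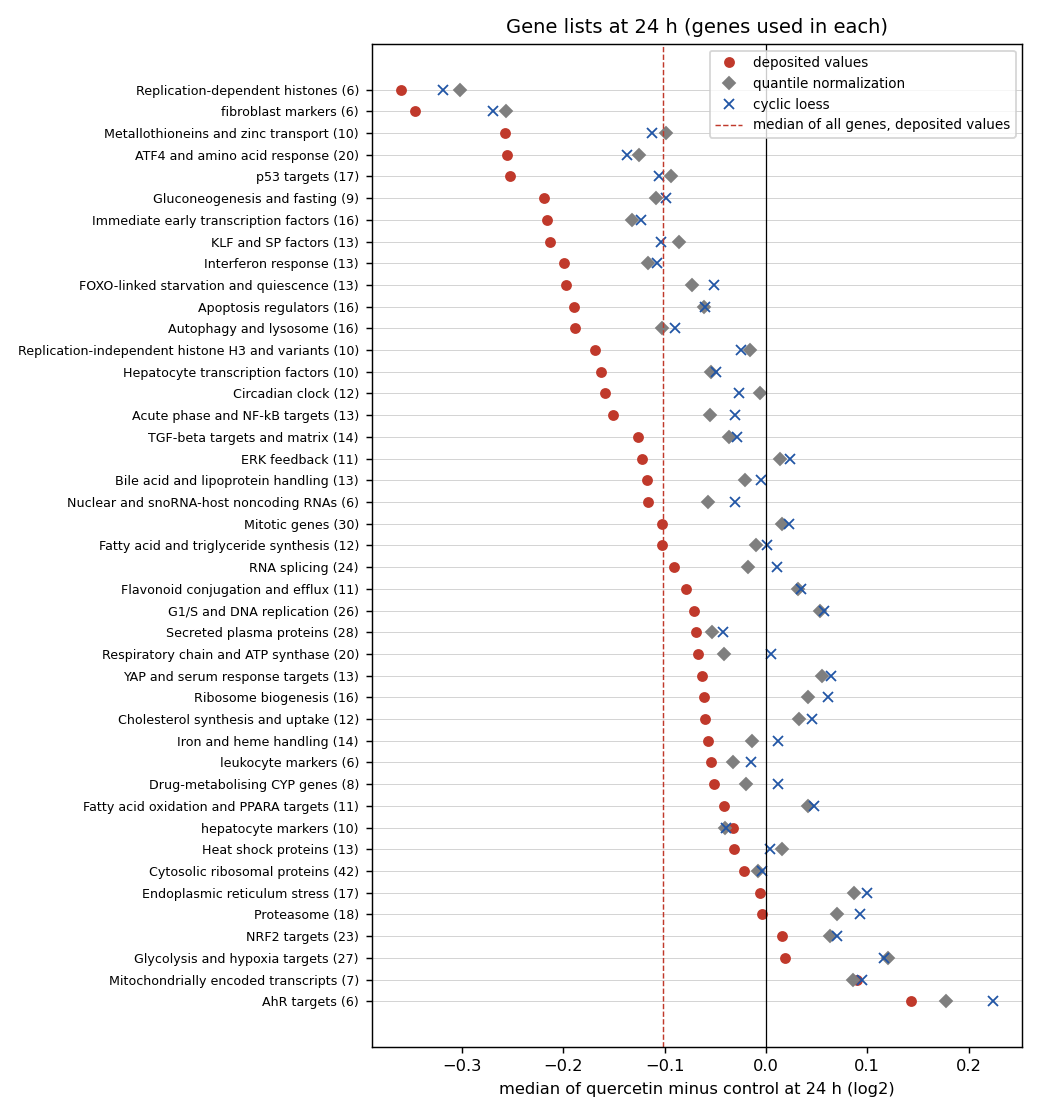
Median quercetin minus control at 24 h (log2, x axis) of the 43 gene lists with at least 5 genes used, from the deposited values and after quantile normalization or cyclic loess, with the median of all genes, -0.10, as a dashed line. The ATF4 list lies at -0.26, -0.13 and -0.14, and the NRF2 list at 0.02, 0.06 and 0.07.

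With 1 array for each treatment at 24 h, the difference at that time has no error of its own. What was tested is whether it departed from the differences at the other times. With limma, the 24 h difference was set against the mean of the differences at 2, 4 and 12 h. The error combined their spread with a value drawn from all genes used. This moderation took 2 residual degrees of freedom to 21.1 in total, so the error was mostly not the gene's own spread. None of the 13298 genes passed an adjusted p of 0.05. The smallest adjusted p was 0.325, and 505 genes (3.8%) had an unadjusted p under 0.05. ATF3 departed by -0.88 ± 0.36 (SE), DDIT3 by -0.62 ± 0.30, GDF15 by -0.82 ± 0.27 and AKR1B10 by -0.46 ± 0.38, each with an adjusted p of 0.999 from limma. The pattern at 24 h was therefore not separated by this test from the moderated spread among the other times. On simulated data the test recovered 2% of genes shifted by 0.5 at 24 h and 40% of those shifted by 1. It can thus miss differences of that size.

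Leaving out 1 pair at a time gave 6 called genes where 2 h was omitted, 14 where 4 h was and 29 where 12 h was. These fits leave 1 residual degree of freedom before moderation, so the SE can fall well below a gene's own spread over time. For RPL27A the SE was 0.24 without 12 h and 0.71 with all times. Its differences at 2 and 4 h were 3.45 and 0.43. The calls are therefore not read as a result. RPL27A, RPLP2, H3-3A, SOD2 and PEG3-AS1 passed in all 3. Those are 5 of the 6 genes above whose differences ran opposite ways at 2 and 24 h. The 6 were chosen by their 2 and 24 h differences. The fits without 4 h and without 12 h use both of these, so the overlap follows in part from that choice.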

How the data were processed

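RNA from 8 HepG2 cultures was hybridised to Affymetrix 3' expression arrays. The authors deposited 54675 probe sets as log2 values, and RMA is the tool that the submitters' processing notes name. For RMA, version and settings are not given in the sources used. Apart from 62 controls, 41091 probe sets named 1 gene, 1801 named more than 1 and 11721 had no entry in the platform annotation. Entrez identifiers brought 41037 symbols up to date. The deposited values were used as they stand. No signal before RMA was used. Precision is limited by the number of arrays.

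The departure of 24 h from the other times was fitted with limma 3.58.1 in R 4.3.3. Its terms were time as a block, quercetin and quercetin at 24 h, with eBayes and a trend, 2 residual degrees of freedom and Benjamini-Hochberg adjustment. The code was tested on simulated data. Named genes are the 10 largest differences each way among all and among bright genes, those with a supporting second probe set, and from each list the first 3 members used and the largest difference each way. Further genes were added to show the lists, the 18S pattern or probe-set disagreement and were chosen after their values were seen, as were the comparisons with the 6 other arrays and of the time of the lowest difference. The 41 gene lists, the 5 marker lists and the 24 h pair itself were chosen with earlier results of these data known.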

Additional observations from a re-analysis of the deposited data

How the results depend on the processing

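The counts of genes at least 1 higher and at least 1 lower at 24 h were 31 and 20. They were 54 and 35 with no brightness filter (89 together), 7 and 5 above the 75th percentile (12), 10 and 14 when probe sets of a gene were averaged (24), 25 and 11 after quantile normalization, 42 and 15 after cyclic loess, and 282 and 391 at a threshold of 1.5-fold (673). The higher share of such genes was 60.8%, against 69.4% after quantile normalization, 73.7% after cyclic loess, 58.3% above the 75th percentile and 56.9% after median centring. Lower genes were the majority with averaged probe sets (41.7% higher), gene-specific probe sets (48.1%, 25 and 27 genes) and at 1.5-fold (41.9%). Departures of 24 h numbered 0 with limma and ranged from 6 to 29 when 1 time pair was left out. The cause was not tested.

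Of 43 list medians, 22 kept their sign under every alternative, including those of the ATF4, immediate early, p53 and autophagy lists. With no filter the median was -0.20 for replication-dependent histones, -0.21 for nuclear non-coding RNAs and 0.091 for fibroblast markers. Above the 75th percentile those were -0.57, -0.018 and -0.092, and the interferon median was -0.019. With the mean of probe sets, replication-dependent histones gave -0.29, nuclear non-coding RNAs -0.043, FOXO-linked genes -0.062 and hepatocyte markers -0.12. With gene-specific probe sets, flavonoid conjugation gave -0.17, replication-dependent histones -0.29, histone variants 0.052, ribosomal proteins -0.11, splicing -0.21, plasma proteins -0.26, autophagy -0.10, hepatocyte markers -0.26 and fibroblast markers -0.47. After quantile normalization, flavonoid conjugation gave 0.031, replication-dependent histones -0.30, histone variants -0.016, metallothioneins -0.099, acute phase -0.055, FOXO-linked -0.073, autophagy -0.10 and apoptosis -0.061. After cyclic loess, flavonoid conjugation gave 0.034, histone variants -0.024, the respiratory chain 0.0046, nuclear non-coding RNAs -0.030, endoplasmic reticulum stress 0.0997, bile acid handling -0.0047, acute phase -0.031, FOXO-linked -0.051, autophagy -0.090 and apoptosis -0.060. The other 263 list medians under an alternative moved by no more than the SD of that list's medians at 2, 4 and 12 h. Of the named gene differences, 220 stayed within the SD of that gene's differences at those times and 24 did not. The labels give no replicate numbers, so the quercetin and control arrays were paired by time alone, as the block in limma. Differences of dim genes are limited by signal over background.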

Other observations

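Interferon-stimulated genes were mixed at 24 h. IFIT1, an RNA-binding antiviral protein, read 8.28 in the quercetin array and 9.23 in the control array, and IFITM1 read 7.44 in the quercetin array and 8.06 in the control array. MX1, an antiviral GTPase, read 7.88 in the quercetin array and 7.21 in the control array, and OAS3 differed by 0.32. Of the 13 genes used, 4 were higher and 9 lower, with a median of -0.20. Over all genes used 66.2% were lower, with a median of -0.10. In 8 of the 13 the 24 h difference was the lowest of the 4 times, against 33.2% of all genes used, and in 3 it was the highest, against 14.8%. Clock genes were lower in 8 of 12, with BMAL1 at -0.48, DBP at -0.47 and TEF at 0.38 (-0.06 in its other bright probe set), and 6 of 12 were lower after either rescaling.

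Feedback inhibitors of ERK, the growth-factor kinase, differed little between the 2 arrays at 24 h but both arrays lay apart from the other times. In all 11 genes of the list both the quercetin array and the control array at 24 h were above all 6 other arrays, as they were in 29.6% of all genes used, with median distances of 0.95 for the quercetin array and 1.13 for the control array. DUSP1, an ERK and stress-kinase phosphatase, read 11.79 in the quercetin array and 12.37 in the control array, while its 2 other probe sets differed by 0.22 and 0.31. DUSP6, the ERK phosphatase, read 11.59 in the quercetin array and 11.23 in the control array, and its 2 other bright probe sets differed by -0.18 and 0.09. KLF9, a glucocorticoid-responsive factor named after its values were seen, read 9.13 in the quercetin array and 8.40 in the control array, and its other bright probe set differed by -0.02. LOX, a collagen cross-linking enzyme, differed by 0.64 and by 0.78 in its 2 bright probe sets, after differences of -1.30 and -1.01 at 2 h.

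Of 13522 probe sets without exactly 1 gene symbol, 4946 were above the brightness cutoff. In the quercetin array at 24 h, 16 of these were higher by 1 or more and 15 were lower by 1 or more. They are not named here.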
